A study of Mus musculus with 60 samples.

Results

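The cerebral cortex of male mice lacking paraoxonase 2 (PON2) was compared with that of their wild-type littermates, gene by gene. The samples were chosen by title and not by any measured value: 5 libraries titled Cortex_M_KO and 5 titled Cortex_M_WT, which are 10 of the 60 libraries and 2 of the 12 groups of the series. The PON2-deficient group was homozygous for the disrupted Pon2 gene and the wild-type group carried no disrupted copy. Both groups came from crosses of heterozygous mice on a C57BL/6J background, were kept on a 14-hour light and 10-hour dark cycle, went through behavioural testing and were killed at 3 to 4 months of age. The labels name no transgene, no Cre and no cell type to which the disruption is limited. The sources used here do not say whether a library held 1 mouse or a pool, nor at which hour a mouse was killed. Where nothing says that libraries came from separate animals, p-values measure only the spread between these samples.

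PON2 is an intracellular lactonase found in mitochondria and the endoplasmic reticulum, where it limits superoxide release from the respiratory chain, and it is expressed in neurons and glia. Its relatives PON1 and PON3 are mainly made in the liver and travel with lipoproteins in the blood. The comparison asks which transcripts of the cortex differ when PON2 is absent in males.

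Library totals lay between 26.1 and 27.8 M estimated counts, so that 1 CPM (count per M counts, on the TMM-scaled total) stood for at least 25.9 counts, and the correlation between any 2 of the 10 libraries lay between 0.980 and 0.988. All 20 listed markers of cortical excitatory neurons passed the filter on low counts, among them Slc17a7, the vesicular glutamate transporter, whose mean was 1355 CPM in the wild-type group against 1373 CPM in the deficient group. Wild-type replicate 2 stood apart. It held transcripts of the olfactory mucosa, such as Omp, the olfactory marker protein, at 68.2 CPM against 0.112 to 3.57 CPM in the other 9 libraries, and a summed 158 CPM of 8 supporting-cell genes of that tissue against 2.59 to 5.49 CPM. A list of 8 olfactory bulb genes (Tbx21, Eomes, Cdhr1, Doc2g, Sp8, Th, Calb2 and Trh) summed to 83.9, 163, 99.8, 73.6 and 60.5 CPM in wild-type replicates 1 to 5 and to 53.2, 37.2, 51.7, 26.1 and 59.8 CPM in deficient replicates 1 to 5. In these sums every wild-type library lay above every deficient one, the closest pair being wild-type and deficient replicate 5. Each of the 8 genes taken alone had overlapping groups, and 0 of the 8 were called by edgeR. Calb2, which interneurons and thalamic cells also express, held 61.0 of the 83.9 CPM in wild-type replicate 1. Without Calb2 the sums of the genotypes overlapped. These olfactory lists were chosen after their values were seen, so no test is given, and their part in the results was not tested. Wild-type replicate 4 had the lowest levels of activity-induced genes, with Fos at 9.46 CPM and Arc at 56.3 CPM.

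Pon2 (chromosome 6, 5264147 to 5298455, minus strand, GRCm38) checked the labels. Its level was 53.6, 56.1, 48.7, 50.8 and 56.9 CPM in wild-type replicates 1 to 5 and 3.20, 2.32, 2.27, 3.68 and 3.73 CPM in PON2-deficient replicates 1 to 5. The groups lay far apart, and every library matched its genotype label. Deficient cortex kept 5.71% of the wild-type level (3.04 ± 0.712 against 53.2 ± 3.51 CPM, SD, n = 5 each), a log2 difference of -4.13 (SE 0.136, adjusted p = 2.25e-14 by edgeR's quasi-likelihood test with Benjamini-Hochberg adjustment). Pon3 was scarce, with 1.60 ± 0.715 CPM in wild-type and 1.31 ± 0.318 CPM in deficient cortex, and did not pass the test (log2 -0.29, SE 0.333, adjusted p = 0.741 by the same edgeR test). Pon1 was not among the tested genes.

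**Figure D1:**
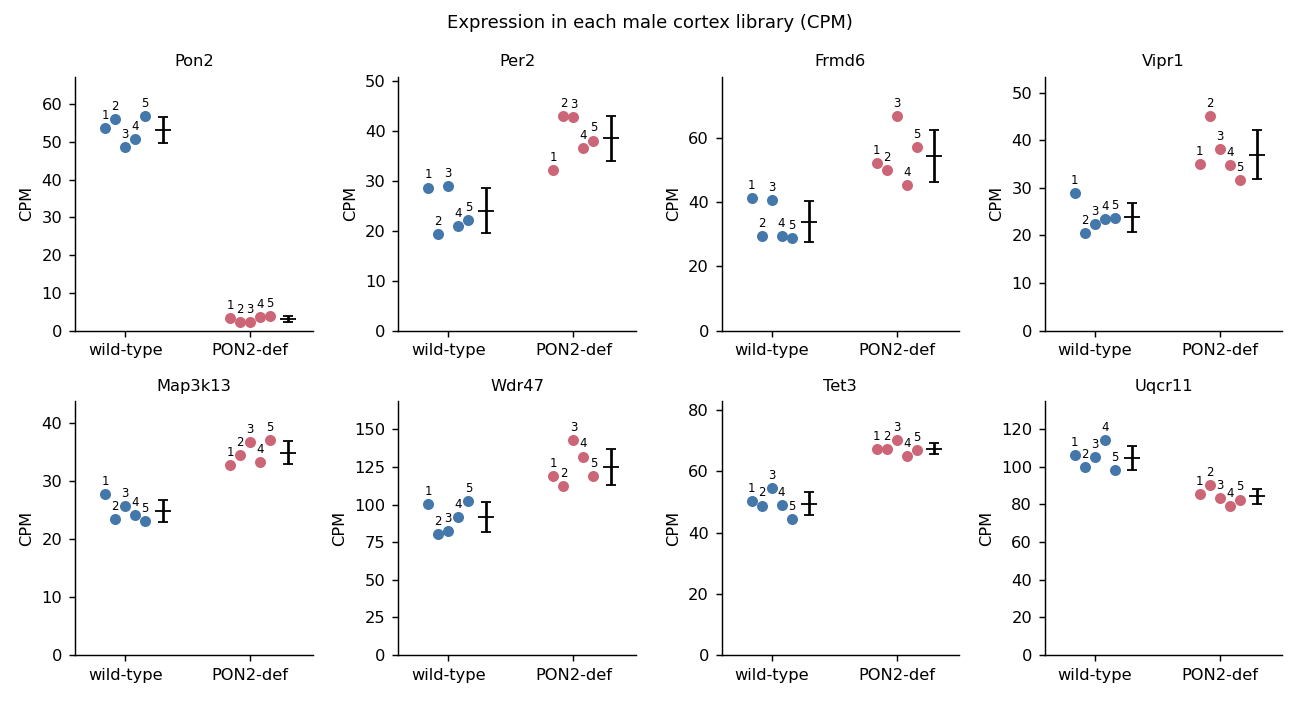
Expression of Pon2 and 7 called genes in each male cortex library (vertical axis, CPM from 0; numbered points, replicates 1 to 5 of each genotype; bar, mean ± SD). Pon2 lies between 2.27 and 3.73 CPM in the deficient libraries, and none of the 7 other genes has overlapping groups.

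Apart from Pon2, few transcripts passed the test and their differences were small. Of 18972 tested genes, 28 were called at an adjusted p under 0.05 (0.148% of all), 21 of them higher in deficient cortex (0.111%) and 7 lower, Pon2 included (0.0369%). The 27 genes besides Pon2 differed by 0.17 to 0.68 on the log2 scale where they rose and by -0.21 to -0.44 where they fell, with adjusted p between 0.0165 and 0.0495 in edgeR's quasi-likelihood test. In 26 of these 27 genes the 5 libraries of one genotype all lay on one side of the 5 of the other, where 298 of all tested genes (1.57%) lay wholly higher and 235 (1.24%) wholly lower. An unadjusted p under 0.05 was reached by 2657 genes (14% of all), 7.82% as higher and 6.19% as lower genes. The median log2 difference over all tested genes was -0.0032.

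This number of calls depended strongly on single libraries and on the model. Leaving out deficient replicate 3 left Pon2 as the sole call. Leaving out wild-type replicate 4 gave 150 calls, 97 higher and 53 lower of 19139 genes. The count was 21, 9, 14 and 5 without wild-type replicates 1, 2, 3 and 5, and 8, 38, 9 and 7 without deficient replicates 1, 2, 4 and 5. DESeq2 called 424 of 20423 genes, 305 higher and 119 lower. In contrast, a fit on the 10 male libraries alone called 3, which were Pon2, Map3k13 and Tet3. A fit with the slope of each library on transcript length as a term called 4, of which 2, Pon2 and Per2, were among the 28. All 28 genes kept their direction in each of these fits, and none of the fits but that without wild-type replicate 4 and DESeq2 called all of them again. The slope on transcript length comes from the same expression values and nearly separated the genotypes. Genotype differences in fits with that slope are therefore weakly determined.

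**Figure D2:**
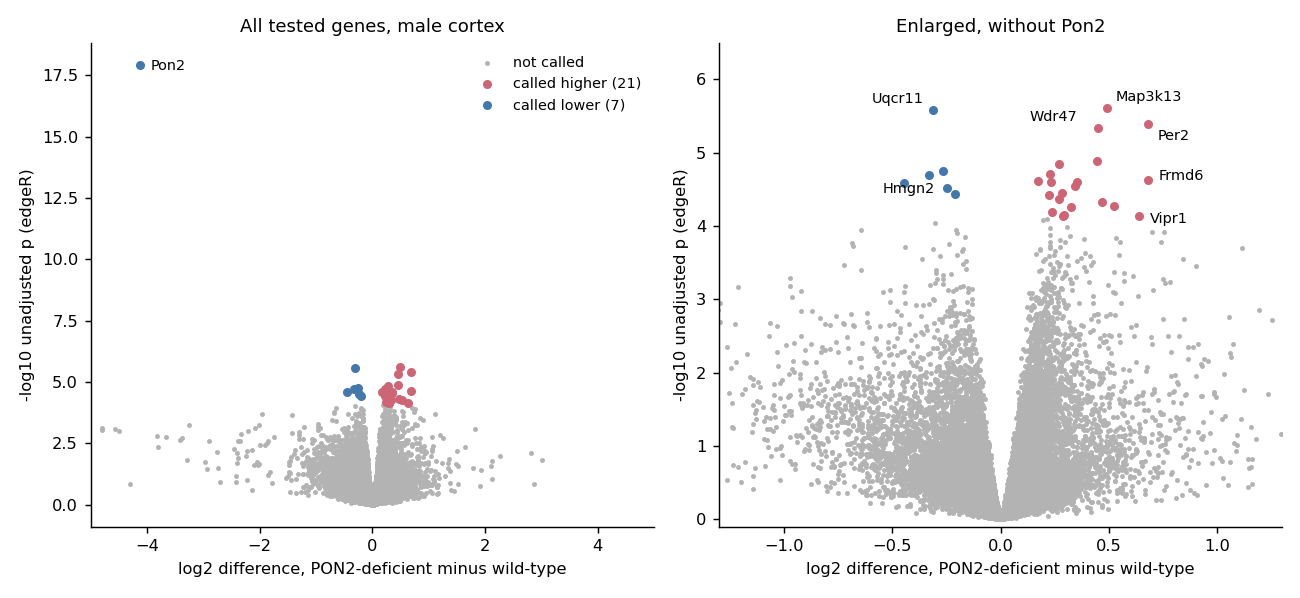
Every tested gene by its log2 difference between genotypes (horizontal axis) and the -log10 of its unadjusted edgeR p (vertical axis), with an enlarged view on the right. Pon2 stands alone at a log2 difference of -4.13, the 21 genes called higher and the 6 others called lower all lie within 0.68 of 0, and 6 uncalled genes fall outside the left view.

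Among the genes that rose, Per2 had one of the largest differences. It encodes a repressor in the circadian feedback loop (chromosome 1, 91415982 to 91459324, minus strand). Its levels were 28.7, 19.3, 29.0, 21 and 22.3 CPM in the wild-type libraries and 32.3, 43.1, 42.8, 36.6 and 38.1 CPM in the deficient libraries. The lowest deficient library, replicate 1, lay above the highest wild-type library, replicate 3. Per2 was 1.60 times as high in deficient cortex (log2 0.68, SE 0.110, adjusted p = 0.0176 by edgeR's quasi-likelihood test), and the call was lost in 2 of the 10 fits that left out 1 library. It was also lost in the fit on the male libraries alone but kept with the length slope in the model.

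Frmd6, a FERM-domain protein of the Hippo pathway (chromosome 12, 70825514 to 70902234, plus strand), showed a difference of the same size. It was measured at 41.3, 29.4, 40.9, 29.6 and 28.9 CPM in wild-type and at 52.4, 50.0, 67.0, 45.5 and 57.2 CPM in deficient cortex, with no overlap (log2 0.68, SE 0.125, adjusted p = 0.0329 by edgeR's quasi-likelihood test). Frmd6 lost its call in 5 of the 10 fits that left out 1 library. Vipr1 encodes a receptor for vasoactive intestinal peptide, the transmitter of a class of cortical interneurons. Its 5 wild-type values ran from 20.5 to 28.9 CPM and its deficient values from 31.7 to 45.1 CPM, highest in replicate 2 (log2 0.64, SE 0.129, adjusted p = 0.0495 by the same test). Vipr1 lost its call in 8 of the 10 fits that left out 1 library, so it stands near the threshold.

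Map3k13 and Wdr47 lost few calls when single libraries were left out. Map3k13, the leucine zipper kinase that drives JNK signalling in neurons (chromosome 16, 21794346 to 21933439, plus strand), was at 27.8, 23.5, 25.7, 24.1 and 23.2 CPM in wild-type and at 32.8, 34.4, 36.8, 33.3 and 37.1 CPM in deficient cortex. The rise was 0.49 (SE 0.0761, adjusted p = 0.0165 by edgeR's quasi-likelihood test) and was lost in 2 of 10 such fits. Wdr47, a microtubule-associated protein of neurons (chromosome 3, 108591279 to 108645719, plus strand), went from 101, 80.5, 82.7, 91.8 and 103 CPM to 119, 112, 143, 132 and 119 CPM. Its log2 difference was 0.45 (SE 0.0732, adjusted p = 0.0176 by that test), lost only without deficient replicate 3 among the 10 fits. With the length slope in the model neither Map3k13 nor Wdr47 was called. Wdr47 was also lost in the fit on the 10 male libraries alone.

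Tet3 and Kdm3a, both chromatin enzymes, were also called higher. Tet3 oxidises 5-methylcytosine (chromosome 6, 83362373 to 83459084, minus strand) and was at 50.4, 48.8, 54.7, 49.0 and 44.5 CPM in wild-type against 67.5, 67.3, 70.2, 65.0 and 67.0 CPM in deficient cortex (log2 0.45, SE 0.0783, adjusted p = 0.0329 by edgeR's quasi-likelihood test). Kdm3a, a histone H3 lysine demethylase, also on chromosome 6 (71588972 to 71632990, minus strand), was at 27.7 to 32.7 CPM against 35.8 to 40.0 CPM, with a log2 difference of 0.35 (SE 0.0652). Neither gene had overlapping groups. Each was lost in 6 of the 10 fits that left out 1 library. Tet3 kept its call in the fit on the 10 male libraries alone and Kdm3a did not. With the length slope in the model neither Tet3 nor Kdm3a was called.

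Smaller rises were called for Mlec, a carbohydrate-binding protein of the endoplasmic reticulum (log2 0.34), Ide, the insulin-degrading enzyme (0.33), Ercc6, a transcription-coupled repair factor (0.29), Nufip2 (0.29) and Chuk, a catalytic subunit of the IκB kinase (0.28). Nsf, the ATPase that takes apart SNARE complexes after vesicle fusion, rose by 0.17 from a high level. It was at 657 to 683 CPM in wild-type and 722 to 785 CPM in deficient cortex (SE 0.0321, adjusted p = 0.0329 by edgeR's quasi-likelihood test). Ercc6, Nufip2 and Chuk were each lost in 9 of the 10 fits that left out 1 library. Mlec was lost in 8 of these fits, Nsf in 7 and Ide in 6.

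The other called genes that rose were named after their values were seen. They are Acap3, whose groups overlapped, Add2, which encodes an adducin of the membrane skeleton, Dhx57, Ric1 and Fbrsl1, and the clone or predicted genes 1810013L24Rik, Gm43272 and Gm43980. Genes called higher had long transcripts, with a median longest annotated transcript of 4902 bases against 3118 bases over all tested genes. The 6 genes called lower besides Pon2 had a median of 1578 bases.

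Among the genes that fell was Uqcr11, a small subunit of respiratory complex III (chromosome 10, 80402997 to 80406830, minus strand). It was at 106, 99.7, 105, 114 and 98.3 CPM in wild-type and at 85.7, 90.2, 83.2, 79.3 and 82.6 CPM in deficient cortex. The groups did not overlap (log2 -0.31, SE 0.0491, adjusted p = 0.0165 by edgeR's quasi-likelihood test), and the call was lost only without deficient replicate 3 among the fits that left out 1 library. Uqcr11 was also not called with the length slope in the model or in the fit on the male libraries alone. Hmgn2, a nucleosome-binding protein, fell by 0.25 on the log2 scale (97.3 ± 6.2 to 82.0 ± 3.32 CPM, SD, n = 5 each, adjusted p = 0.0337 by edgeR's quasi-likelihood test). Hmgn2 lost its call in 7 of the 10 fits that left out 1 library.

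Rpl17, a protein of the large ribosomal subunit, was at 263 to 317 CPM in wild-type and at 239 to 248 CPM in deficient cortex (log2 -0.21, SE 0.0401, adjusted p = 0.0356 by edgeR's quasi-likelihood test). Rps27rt fell by 0.33, but it is nearly identical to a ribosomal protein gene and estimated counts may be split between the copies, so its value is uncertain. The predicted genes Gm42418 and Gm47164 were also called lower and were named after their values were seen. Just outside the threshold lay Tmsb10, an actin-sequestering thymosin, at 119 to 136 CPM against 87.5 to 115 CPM (log2 -0.30, adjusted p = 0.0562 by the same test).

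**Figure D3:**
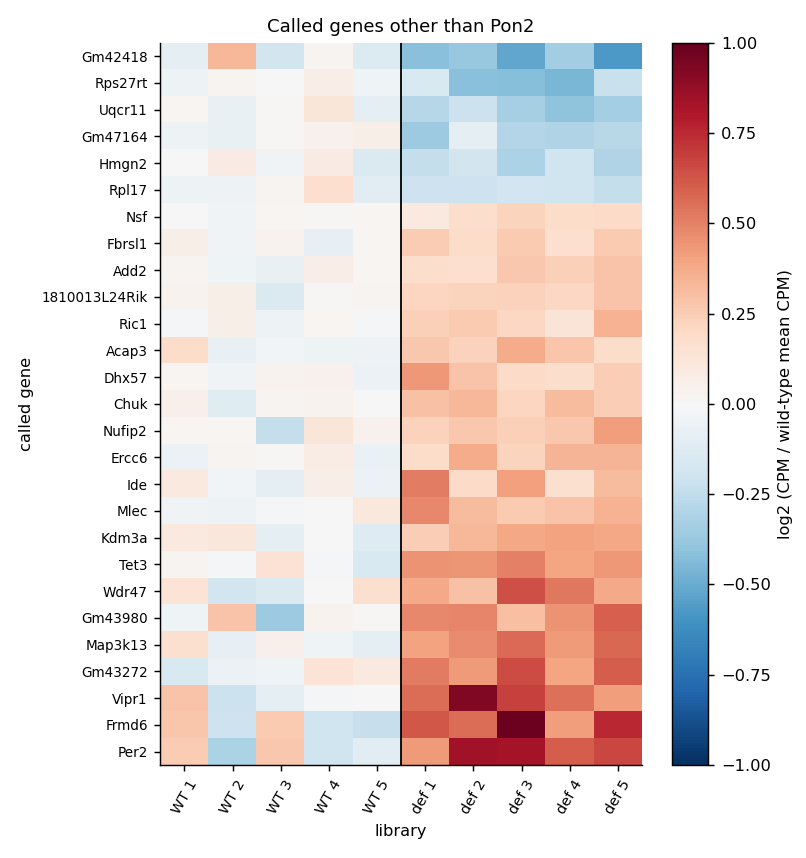
Each called gene other than Pon2 (rows) in each male cortex library (columns, 5 wild-type then 5 deficient), as the log2 ratio of its CPM to the wild-type mean. Acap3 is the gene whose groups overlap, with wild-type replicate 1 at 134 CPM.

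The circadian clock genes lay mostly higher in deficient cortex. Of 19 tested members 16 were higher, with a median log2 difference of 0.14, and 1, Per2, was called, against 0.111% called higher over all genes. DESeq2 called 3 of the 19 higher, where it called 305 of 20423 genes higher over all. Per1, the paralogue of Per2, was at 145, 86.9, 166, 53.0 and 98.0 CPM in wild-type and 173, 175, 220, 155 and 164 CPM in deficient cortex. Its groups overlapped and it was not called (log2 0.69, SE 0.208, adjusted p = 0.133 by edgeR's quasi-likelihood test). Cry2, a partner of the PER proteins, and Nr1d2, a nuclear receptor of the second clock loop, had groups that did not overlap but were not called either (0.14 and 0.19). Bhlhe40, a repressor that competes for E-boxes, was at 93.3 ± 23.8 and 137 ± 27.2 CPM (SD, n = 5 each, log2 0.56, adjusted p = 0.0993 by the same edgeR test). With the length slope in the model, 13 of 19 clock genes were higher and the median was 0.051, and without deficient replicate 3 it was 0.092.

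The E-box, the hexamer bound by the activators of the clock loop, was searched in the 250 bases before the RefSeq transcript starts of each gene, 32851 windows in all, several for some genes. The stretches below are shown because they place that motif before a transcript start of 4 genes called higher, of 1 called lower, and of 2 clock genes for comparison. They come from RefSeq on GRCm38.p6 and are written 5′ to 3′ on the strand of the gene, with the motif in capitals. The coordinates are chr4:155891705-155891760 (plus strand) for Acap3, chr14:32513400-32513455 (plus) for Ercc6, chr12:70825273-70825328 (plus) for Frmd6, chr11:103954200-103954255 (minus) for Nsf, chr4:133967992-133968037 (minus) for Hmgn2, chr11:69098758-69098813 (plus) for Per1 and chr10:85185084-85185139 (minus) for Cry1. The stretches of Per1 and Hmgn2 lie inside the gene as GENCODE annotates it (69095217 to 69109960 on chromosome 11 and 133964738 to 133968650 on chromosome 4), before an inner transcript start.
Acap3: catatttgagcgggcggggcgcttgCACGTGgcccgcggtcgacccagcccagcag
Ercc6: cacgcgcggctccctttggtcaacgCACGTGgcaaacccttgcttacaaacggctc
Frmd6: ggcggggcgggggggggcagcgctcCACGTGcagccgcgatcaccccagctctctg
Nsf: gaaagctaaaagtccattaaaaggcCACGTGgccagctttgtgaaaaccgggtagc
Hmgn2: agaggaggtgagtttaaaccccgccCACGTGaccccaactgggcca
Per1: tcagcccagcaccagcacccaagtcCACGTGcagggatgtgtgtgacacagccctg
Cry1: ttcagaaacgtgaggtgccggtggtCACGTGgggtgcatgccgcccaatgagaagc

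The motif CACGTG, which reads the same on both strands, stood before a start of 4 of the 18 called-higher genes with a RefSeq promoter, 1 of the 4 called-lower genes and 5 of 17 clock genes, against 6.86% of all 27025 genes with a promoter. Promoters of chromosome 18, where Rpl17 lies, were left out of the search and of these shares. Per2 and Klf10 were not matched. A further 4 motifs were searched on both strands. The cAMP response element TGACGTCA stood before 0 of 18 called-higher genes (1.77% of all), and its shorter form TGACG, which the full element contains, before 7 of 18 (19.8% of all). The core of the antioxidant response element TGACNNNGC stood before 2 of 18 (11.5% of all) and the palindromic NRF1 site before 0 of 18 (0.877% of all). A match describes these letters in this window and nothing more.

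Immediate early genes, which neurons switch on within minutes of activity, were spread widely within the wild-type group. Of 33 tested members 28 lay higher in deficient cortex, with a median log2 difference of 0.30, but 0 were called by edgeR, 6 reached an unadjusted p under 0.05 as higher genes (18.2%, against 7.82% of all genes) and 1 as a lower gene, and DESeq2 called 1. Klf10, a zinc finger factor, was the one member without overlap, at 29.1, 20.8, 33.7, 17.4 and 27.5 CPM in wild-type and 37.8, 41.8, 40.7, 41.5 and 36.2 CPM in deficient cortex (log2 0.62, SE 0.179, adjusted p = 0.121 by edgeR's quasi-likelihood test). Fos, the prototype of the group, was at 48.4, 27.2, 47.0, 9.46 and 26.1 CPM in wild-type and 38.9, 32.5, 54.2, 31.2 and 30.2 CPM in deficient cortex. Its groups overlapped, and wild-type replicate 4 was the lowest library. Btg2 and Npas4 ran the other way, with log2 differences of -0.69 and -0.51 and no call. Without wild-type replicate 4 the median of the list was 0.18. With the length slope in the model all 33 members lay higher, with a median of 0.94, and with the slope from median transcript lengths 29 did, with a median of 0.56. Of 18 glucocorticoid-induced genes 14 lay higher, with 0 called by edgeR, 1 at an unadjusted p under 0.05 and a median of 0.18.

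Transcripts of the translation machinery lay slightly lower in deficient cortex. Among 78 cytosolic ribosomal protein genes 77 were lower, with a median log2 difference of -0.10, and 1, Rpl17, was called, against 0.0369% called lower over all genes. Their 5 libraries lay wholly lower in 10 of the 78 (12.8%, against 1.24% of all genes), and 37 reached an unadjusted p under 0.05 (47.4%, against 6.19%). Rpl39, at 89.3 ± 4.73 and 77.4 ± 1.01 CPM, and Rplp2, at 165 ± 5.52 and 144 ± 5.45 CPM (SD, n = 5 each), were the members next to the threshold, with log2 differences of -0.21 and -0.20. DESeq2 called 17 ribosomal genes lower, where it called 119 of 20423 genes lower over all. Without wild-type replicate 4 edgeR called 8, where 53 of 19139 genes were called lower over all. The call of Rpl17 was lost in 6 of the 10 fits that left out 1 library.

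The nuclear genes of the respiratory chain, whose superoxide release PON2 is known to limit, also lay slightly lower. Of 74 tested members 66 were lower, with a median of -0.075, and 1, Uqcr11, was called, against 0.0369% called lower over all genes. Groups lay wholly lower in 10 of the 74 (13.5%, against 1.24% of all genes). An unadjusted p under 0.05 was reached by 24, all lower (32.4%, against 6.19%). DESeq2 called 6 of the 74 lower, where it called 119 of 20423 genes lower over all. Without wild-type replicate 4 edgeR called 2, in a fit that called 150 of 19139 genes. Ndufv3, a complex I subunit, was at 62.1 to 69.0 CPM in wild-type and 56.4 to 61.3 CPM in deficient cortex (log2 -0.18, adjusted p = 0.0730 by edgeR's quasi-likelihood test). Cox7c, of complex IV, had a log2 difference of -0.19 and Uqcrq, of complex III, one of -0.22, both without overlap and without a call. The 13 mitochondrially encoded genes of the same complexes showed no common direction. Of these 7 were higher, and DESeq2 called 1 of the 13 higher. The median was 0.018, and 0 were called by edgeR, with 1 higher and 1 lower at an unadjusted p under 0.05. Leaving out single libraries moved this median between -0.014 and 0.064. Wild-type replicate 4 held mt-Co2 at 4854 CPM against 2190 to 2676 CPM in the others of its group.

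The length of the transcript moved with these groups. Ribosomal and nuclear respiratory genes had median longest transcripts of 1076.5 and 1093.5 bases against 3118 over all tested genes. The slope of expression on log2 transcript length, centred over the cortex libraries, was -0.0412 to -0.00121 in the wild-type libraries and -0.0083 to 0.0178 in the deficient ones, and the groups overlapped (mean difference 0.0335, exact permutation test, 2-sided p = 0.0159, adjusted p = 0.317 over 24 library measures, smallest possible p 0.00794). The overlap rested only on wild-type replicate 4 and deficient replicate 2, so a fit with this term determines genotype differences weakly. With this slope in the model, 41 of 78 ribosomal genes were higher and the median was 0.011. Likewise 42 of 74 respiratory genes were higher, with a median of 0.015. The longest transcript was chosen as the measure of length after seeing the data. With the median transcript length of each gene instead, the slopes differed by 0.0111 (exact permutation p = 0.183), 7 of 78 ribosomal and 17 of 74 respiratory genes were higher, and the medians were -0.074 and -0.043. The cause of the difference in slope was not tested.

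**Figure D4:**
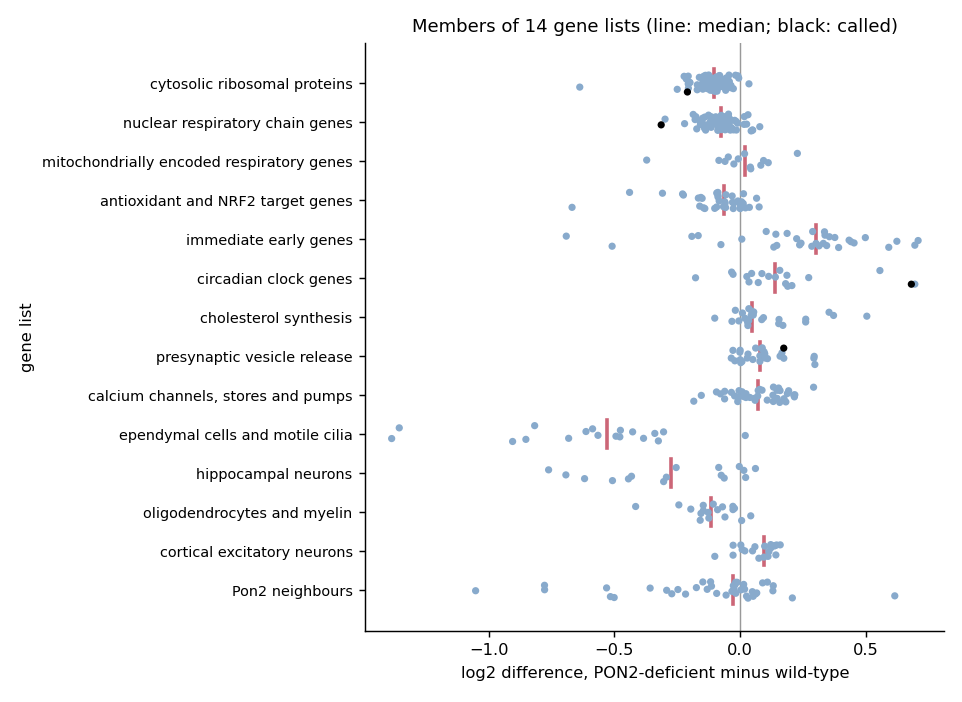
Log2 difference of each tested member (points, black where called) of 14 gene lists, with the median of each list as a vertical line. Ribosomal and nuclear respiratory members lie close together just below 0, with medians of -0.10 and -0.075, while ependymal and cilia markers spread down to -1.39.

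Antioxidant genes, the other arm of defence against superoxide, had 28 of 38 members lower and a median of -0.064. Of the 38, 0 were called by edgeR and 1 by DESeq2. An unadjusted p under 0.05 was reached by 8, all lower (21.1%, against 6.19% of all genes). Txnrd2, the mitochondrial thioredoxin reductase, was at 17.8, 13.9, 14.8, 12.8 and 15.1 CPM in wild-type and 11.6, 9.32, 11.1, 11.9 and 11.0 CPM in deficient cortex. Its groups did not overlap, and its log2 difference of -0.44 (SE 0.0972) missed the threshold with an adjusted p of 0.0655 in edgeR's quasi-likelihood test. Gpx4, which reduces lipid peroxides, was at 261 ± 13.2 and 236 ± 10.3 CPM (SD, n = 5 each, log2 -0.15, not called). With the length slope in the model 22 of the 38 lay higher, so the direction of this list turned. Of 13 coenzyme Q genes 6 lay higher and 0 were called, with 1 at an unadjusted p under 0.05.

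Genes of the presynaptic release machinery lay higher in 23 of 27 tested members, with a median of 0.079. The 1 call was Nsf, against 0.111% called higher over all genes, and it was lost in 7 of the 10 fits that left out 1 library. Of the 27, 8 reached an unadjusted p under 0.05, all higher (29.6%, against 7.82% of all genes). DESeq2 called 4 of the 27 higher, where it called 305 of 20423 genes higher over all. Unc13a, the priming factor of synaptic vesicles, was at 332, 296, 343, 340 and 331 CPM in wild-type and 390, 384, 446, 400 and 390 CPM in deficient cortex. These groups did not overlap, yet the difference of 0.29 was not called (SE 0.0641, adjusted p = 0.0654 by edgeR's quasi-likelihood test). Rims1, an active zone scaffold, had a log2 difference of 0.30 with overlapping groups. Of 39 calcium channel, store and pump genes 28 lay higher with a median of 0.072, 0 calls by edgeR and 1 call by DESeq2. An unadjusted p under 0.05 was reached by 8 in either direction, 7 of them higher (17.9%, against 7.82% of all genes). Itpr1, the inositol trisphosphate receptor of the endoplasmic reticulum, was at 396 to 564 CPM against 511 to 636 CPM (log2 0.29, adjusted p = 0.153 by the same edgeR test). Both lists had long transcripts, with medians of 4800 and 7130 bases, and their medians were 0.032 and 0.017 with the length slope in the model. Without deficient replicate 3 the presynaptic median was 0.045, and without wild-type replicate 4 the calcium median was 0.11.

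Cholesterol synthesis genes lay higher in 21 of 25 members, with a median of 0.048 and 0 calls by edgeR. An unadjusted p under 0.05 was reached by 7, all higher (28%, against 7.82% of all genes). DESeq2 called 3 higher, where it called 305 of 20423 genes higher over all. Cyp51, the lanosterol demethylase, was at 54.5, 49.4, 66.8, 49.9 and 54.2 CPM in wild-type and 59.7, 67.1, 74.5, 69.3 and 84.7 CPM in deficient cortex, with overlap (log2 0.37, SE 0.0849, adjusted p = 0.0700 by edgeR's quasi-likelihood test). Lss, which forms lanosterol, had a log2 difference of 0.35 (adjusted p = 0.0714 by that test). Srebf2, the transcription factor that drives the pathway, was at 245 to 258 CPM against 258 to 281 CPM, and was not called. With the length slope in the model 22 of 25 lay higher.

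The remaining pathway lists had 0 members called by edgeR. Over all tested genes, 7.82% were higher and 6.19% lower at an unadjusted p under 0.05. DESeq2 called 2 members higher in each of the mitochondrial transport, planar polarity and amino acid transporter lists. It called 1 higher in the unfolded protein response list and 0 in the other lists of this paragraph. Genes of mitochondrial transport and dynamics lay higher in 17 of 25 members (median 0.048, 4 higher and 1 lower at an unadjusted p under 0.05). Rhot2, a Miro GTPase that tethers mitochondria to motors, was at 56.2 to 62.6 CPM in wild-type and 63.0 to 75.2 CPM in deficient cortex, without overlap (log2 0.23, SE 0.0502, adjusted p = 0.0655 by edgeR's quasi-likelihood test). Protocadherin, Celsr and planar polarity genes lay higher in 11 of 18 (median 0.070, 5 higher at an unadjusted p under 0.05), with Celsr3 at 111 ± 3.71 and 129 ± 9.74 CPM (SD, n = 5 each). Amino acid transporters were evenly split, with 10 of 21 higher and 3 higher at an unadjusted p under 0.05, among them Slc38a2, a glutamine carrier, with a log2 difference of 0.24. Stress pathways stayed near 0 in the median. The unfolded protein response lay higher in 18 of 29 (median 0.024, 3 higher and 1 lower at an unadjusted p under 0.05) and heat shock proteins in 15 of 22 (median 0.019, 0 at an unadjusted p under 0.05). Receptors and other genes of glutamate and GABA signalling did so too, with 12 of 22 glutamate receptor genes higher (median 0.014, 3 at an unadjusted p under 0.05) and 12 of 20 GABA genes higher (median 0.0085, 2 at an unadjusted p under 0.05). Both directions turned with the length slope in the model, with 6 of 22 glutamate receptor genes higher (median -0.097) and 3 of 20 GABA genes higher (median -0.085). Interferon-stimulated genes lay higher in 10 of 24 (median -0.052, 1 lower at an unadjusted p under 0.05).

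Around Pon2 on chromosome 6, none of the 41 tested genes whose lower coordinate lies within 5 Mb of that of Pon2 was called by edgeR. An unadjusted p under 0.05 was reached by 3, all lower (7.32%, near the 6.19% of all genes). DESeq2 called 1 of the 41 lower. Of the 41, 26 were lower, with a median of -0.027, which moved between -0.062 (without deficient replicate 4) and -0.019 when single libraries were left out. Sem1, a small subunit of the proteasome lid, was at 45.7, 45.2, 45.1, 44.2 and 43.4 CPM in wild-type and 38.5, 40.2, 40.5, 40.8 and 38.3 CPM in deficient cortex. Its groups did not overlap (log2 -0.17, SE 0.0387, adjusted p = 0.0655 by edgeR's quasi-likelihood test). Asb4 was scarce and differed by -1.05 (SE 0.442), with wild-type replicate 5 at 2.53 CPM against 0.405 to 1.01 CPM in the others of that group. Farther out on the same chromosome, 4 of the 27 called genes besides Pon2 (Tet3, Add2, Kdm3a and Gm43980) lie on chromosome 6, which holds 966 of the tested genes (5.09%).

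Markers of other cell types were read to see what the dissected pieces held. Ependymal and motile cilia markers lay lower in 17 of 18 members, with a median log2 difference of -0.53, 0 calls by edgeR and 1 call by DESeq2. An unadjusted p under 0.05 was reached by 9, all lower (50%, against 6.19% of all genes). Foxj1, the master factor of motile cilia, was at 8.07, 8.77, 5.77, 8.76 and 7.09 CPM in wild-type and 3.56, 3.98, 5.43, 5.06 and 5.94 CPM in deficient cortex. These ranges overlapped only through wild-type replicate 3 and deficient replicate 5 (log2 -0.68, SE 0.15, adjusted p = 0.0655 by edgeR's quasi-likelihood test). The summed level of the list was 32.4 to 58.4 CPM in wild-type and 25.3 to 36.5 CPM in deficient cortex. Wild-type replicate 2, the library with olfactory transcripts, had the highest mean log2 CPM of the list, at 1.31. The median log2 difference was -0.43 without that library and ran from -0.67 to -0.43 when single libraries were left out. It was -0.80 with the length slope in the model and -0.33 with 2 surrogate variables. In the exact permutation test on the mean log2 CPM of the list the difference was -0.546 (2-sided p = 0.0317, adjusted p = 0.317 over the 24 measures). In bulk tissue, fewer cells of a type and less RNA per cell cannot be told apart.

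Hippocampal markers lay lower in 13 of 16 members (median -0.27, 0 called by edgeR, 1 at an unadjusted p under 0.05), with summed levels of 515 to 599 CPM in wild-type and 493 to 552 CPM in deficient cortex. Oligodendrocyte and myelin markers lay lower in 16 of 18 (median -0.12, 0 called by edgeR, 2 at an unadjusted p under 0.05), and Opalin, a myelin protein, differed by -0.42. Without wild-type replicate 2 the hippocampal median was -0.11, and the oligodendrocyte median was -0.046 without wild-type replicate 4 and -0.19 without replicate 5. Calb2, the calretinin of a class of interneurons and of thalamic and olfactory bulb cells, was at 61.0, 64.3, 36.9, 23.6 and 29.2 CPM in wild-type and 25, 14.3, 17.3, 11.6 and 24.6 CPM in deficient cortex. It was highest in wild-type replicate 2, the library with olfactory transcripts, and was not called (log2 -1.21, SE 0.303, adjusted p = 0.0880 by edgeR's quasi-likelihood test). Of 20 cortical excitatory markers 17 lay higher (median 0.096, 0 called by edgeR and 0 at an unadjusted p under 0.05), with medians of 0.058 without wild-type replicate 2 and 0.054 without deficient replicate 3. In the fit with the length slope 9 of the 20 were higher and the median turned to -0.034. The other marker lists had 0 members called by edgeR as well. DESeq2 called 1 member higher in each of the astrocyte and the endothelial and mural lists, and 1 lower in each of the interneuron and thalamic lists. Calb2 belongs to both the interneuron and the thalamic list and has the smallest edgeR p in each. Their lower calls therefore need not be separate genes. Astrocyte markers were higher in 9 of 18 (3 at an unadjusted p under 0.05), microglial in 5 of 18 (3), endothelial and mural in 16 of 20 (5), meningeal in 9 of 18 (2), interneuron in 6 of 20 (4), oligodendrocyte precursor in 6 of 11 (0), thalamic in 4 of 15 (4), striatal in 17 of 18 (1), hypothalamic and pituitary in 2 of 7 (3), cerebellar in 5 of 16 (6), choroid plexus in 8 of 22 (1) and red blood cell in 1 of 8 (0), each count in parentheses being the members at an unadjusted p under 0.05. Over all tested genes 14% reached that p in either direction. Some of the marker counts rested on 1 library or on the length slope. Striatal markers were higher in 7 of 18 without deficient replicate 2. Choroid plexus markers were higher in 1 of 22 without deficient replicate 2, in 16 without wild-type replicate 5 and in 20 with the length slope in the model. Meningeal markers were higher in 1 of 18 without wild-type replicate 4. Summed choroid plexus markers ran from 334 to 1043 CPM among the deficient libraries and from 339 to 917 CPM among the wild-type libraries. None of the 24 library measures had an adjusted p under 0.05. The part of tissue composition in the called genes was not tested beyond the fit with the choroid plexus mean as a term. That fit gave 26 calls, 23 of them among the 28. The choroid plexus mean itself differed by -0.195 between genotypes (exact permutation test, 2-sided p = 0.73), so this fit cannot speak for the other marker lists.

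**Figure D5:**
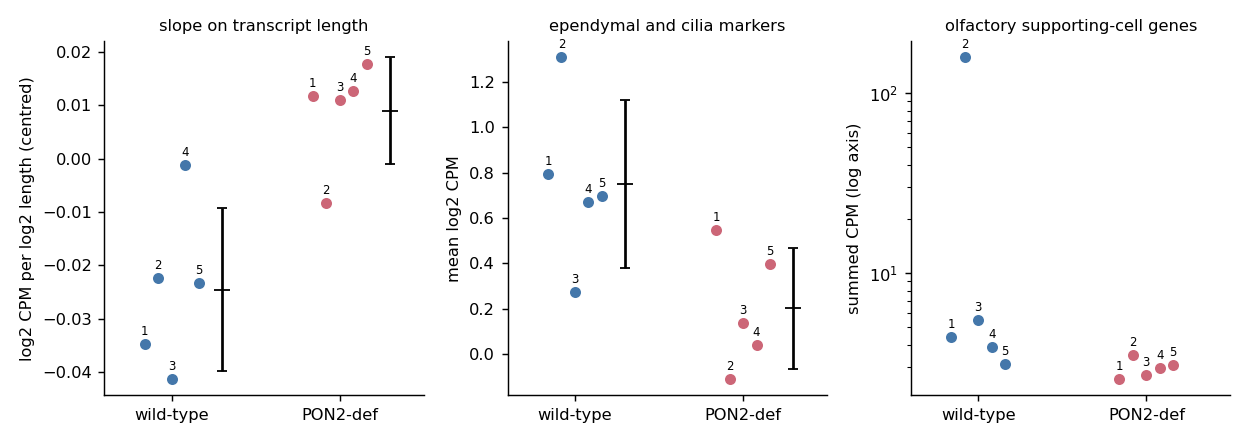
Measures of the 10 male cortex libraries (numbered points, replicates; bars in the left and middle panels, mean ± SD): slope of expression on transcript length, mean log2 CPM of ependymal and cilia markers, and summed CPM of olfactory supporting-cell genes on a log axis. Wild-type replicate 2 stands at 158 CPM in the right panel against 2.59 to 5.49 CPM in the other 9 libraries.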

How the data were processed

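RNA from pulverised frozen cortex was sequenced as 150 nt pairs, per the labels' protocols. The authors deposited a table of expected counts per gene (estimates, not whole numbers), log2 CPM values and precision weights (a score per gene and library). The submitters' processing notes name Salmon, edgeR and limma. Their versions, the build and the gene models are not given in the sources used. The deposited log2 values equal limma's voom formula with a pseudocount of 0.5 within 5.33e-14.

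Expected counts were rounded and fitted with edgeR 4.0.16 (R 4.3.3) over the 20 cortex libraries with the means of 4 groups of sex and genotype, which gives 16 residual degrees of freedom. TMM scaling, filterByExpr, quasi-likelihood F tests (2-sided) and Benjamini-Hochberg adjustment at 0.05 over all 18972 tested genes were used. The females enter the spread and the low-count filter (the 10 male libraries alone keep 18262 genes), and sexes were not compared. CPM values use TMM library sizes, and log2 CPM of libraries a prior count of 2. The biological coefficient of variation was 0.12. Differences are PON2-deficient minus wild-type, with SE from the F statistic. Gene names and positions came from GENCODE M21 (GRCm38), to which 20403 of 20423 IDs (99.9%) matched. The pipeline was tested on simulated data.

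Named genes were the paraoxonases, up to 12 called genes each way with at least 1 CPM and no predicted or clone name, filled with uncalled ones up to 6, and up to 4 called members, or else the 2 with the smallest p, of 36 gene lists, with 4 neighbours of Pon2. Where the fill applied, only Tmsb10 was added. Further genes were given with values though the rule did not pick them. They include Slc17a7, Arc, Fos, Btg2, Npas4, Cry2, Nr1d2, Bhlhe40, Rpl39, Rplp2, Ndufv3, Cox7c, Uqcrq, Unc13a, Rims1 and Srebf2. These were named with their values known. The comparison, the lists and the rule were chosen with earlier results of these data known. Library measures were compared by exact permutation of 5 against 5. Alternatives were DESeq2 1.42.0, limma 3.58.1 with voom, other scalings and filters, covariates, surrogate variables (sva 3.50.0), the replicate block, and leaving out each library.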

Additional observations from a re-analysis of the deposited data

Results flagged for a closer look

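In groups of 5, a library was marked where its gap to the nearest other exceeded Dixon's limit. This held for 19 of 208 groups (9.13%), where chance alone marks about 1 in 20. Of the 19, 8 were in wild-type replicate 2, and 5 of these 8 are genes picked because they were high there.

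Wild-type replicate 2 was highest for Omp (68.2 CPM), Stoml3 (39.5 CPM), Cnga2 (18.7 CPM), Cyp2a5 (30.3 CPM) and Cyp2f2 (28.5 CPM), all of the olfactory mucosa, and for Col1a1 (80.6 CPM), Dcn (26.9 CPM) and Ebf1 (9.94 CPM). Other wild-type libraries marked as high were replicate 4 for mt-Co2 (4854 CPM), replicate 5 for Asb4 (2.53 CPM), replicate 3 for Grin2c (56.2 CPM) and replicate 1 for Acap3 (134 CPM). For 1810013L24Rik, wild-type replicate 3 was low (36.6 CPM).

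Among the deficient libraries, replicate 2 was high for Aqp1 (4.06 CPM) and Tnnt1 (5.07 CPM) and low for the slope on transcript length (-0.0083). Replicate 5 was high for Nufip2 (41.9 CPM), replicate 1 for Pmch (7.29 CPM), and replicate 3 low for Zbtb20 (57.9 CPM). The causes were not tested.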

How the results depend on the processing

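Pon2 was called in every alternative, and the 28 called genes kept their direction in all of them. The number of calls did not hold. Against 28 it was 3 with the 10 male libraries alone, 17 with all 60 libraries, 424 in DESeq2, 6 with 2 surrogate variables, 4 with the length slope and 13 with the length slope and the replicate block together. It moved less with another scaling (29 calls), with limma's voom (24) and with a filter of at least 1 CPM in 5 libraries (33). Leaving out 1 library gave 1 to 150 calls. The replicate block alone gave 24 calls, 12 of them among the 28. Deviations of same-numbered libraries of the genotypes correlated at -0.0297 to 0.0900, and those of differently numbered ones at -0.163 to 0.0957. Of the 5 wild-type libraries, 3 correlated best with their own number. These small values do not settle whether the numbers mark pairs, and the labels do not say. The main fit took no pairs. Chosen after seeing the data, the length slope from median transcript lengths gave 31 calls, 15 of them among the 28, and leaving out wild-type replicate 2 with the length slope gave 2.

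Directions turned only for uncalled genes. With the length slope, Pon3 was 0.25, Grm5 -0.21 and Gabrb2 -0.30. With the block and the length slope, Asb4 was 0.15, Ern1 -0.01, Atp2b3 -0.01, Grm5 -0.12, Gabrb2 -0.33, C1qc 0.10, Oxt 0.64 and Hbb-bs 0.53. With surrogate variables, Pon3 was 0.01, Col1a1 0.38 and Ebf1 0.07. Leaving out 1 library moved Col1a1 between -1.35 and 0.03 (turned without wild-type replicate 2) and Pmch between -0.03 and 3.24 (turned without deficient replicate 1). Without wild-type replicate 2 and with the length slope, Pon3 was 0.59, Dlx5 0.01, Atf5 0.15, Itpr1 -0.03, Grm5 -0.21, Gabrb2 -0.31, Col1a1 0.49, Aqp1 0.07 and Ebf1 0.08. The cause of these changes was not tested.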
